A study of Mus musculus with 18 samples.

Results

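The genes described here, of calcium and calmodulin signalling or of mRNAs known from dendrites, were chosen by name. They were Camk2a, Camk2b, Camk2d, Camk2g, Camk4, Calm2, Calm3, Nrgn and Ddn, with every probe set that the probe annotation gives to 1 of them. These 9 genes, of 17097 that the annotation names, had 25 of the 45037 probe sets in the table. Of these, 22 were bright enough to be tested, among 27022 tested in all. The arrays measured cortex and striatum, dissected together, from 6-week-old mice, 3 controls (CTRL) and 3 with the transgene TgCPEB4∆4, a form of CPEB4 without a microexon. The labels give neither the promoter of the transgene nor the strain or sex of the mice, and describe the controls only as CTRL. Each mouse gave 3 arrays: total RNA (INPUT), RNA that left a poly(U) column at 25% formamide and is enriched for short poly(A) tails (WASH), and RNA that left it at 90% formamide and is enriched for long tails (ELUTED). The values are log2 expression per probe set. Equal masses were labelled, so a value is the share of a transcript within its preparation. The difference of the long-tail and the short-tail value within a mouse is called the tail ratio. A tail ratio above 0 means a larger share in the long-tail than in the short-tail fraction, on a log2 scale.

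Calmodulin is a small calcium sensor that is encoded by several genes, and calcium-loaded calmodulin switches on the CaM kinases. CaMKII is a holoenzyme built from alpha, beta, delta and gamma subunits and is abundant at the postsynaptic side of excitatory synapses, while CaMKIV acts mainly in the nucleus on transcription factors such as CREB. The mRNAs of Camk2a, Nrgn and Ddn are known to be carried into dendrites, and cytoplasmic polyadenylation of the Camk2a mRNA, with CPEB proteins bound to its 3' end, is a textbook case of poly(A) tail control at synapses.

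The arrays were not alike. The SD of the tail ratio over all tested probe sets was 1.19, 0.593 and 0.859 in control mice 1, 2 and 3, and 0.614, 0.621 and 0.388 in transgenic mice 1, 2 and 3. Control mice 1 and 3 had the broadest tail ratios, and the widest tail ratio of a member lay in control mouse 1 for 12 and in control mouse 3 for 7 of the 22 probe sets tested. The highest of 23 nonspecific control probe sets stood at 7.30 on the long-tail array of control mouse 1, and values below that level of an array are called not above background here. That level was 7.07 to 7.52 on total RNA arrays, 5.43 to 6.03 on short-tail arrays and 5.53 to 6.29 on the other long-tail arrays. In total RNA the mean of 5 inflammation genes was 10.1 in transgenic mouse 1 and 7.21 in transgenic mouse 2, against 6.03 to 6.21 in the other 4 mice. Except in transgenic mouse 1, these means lay below the background level of their array, and 1 of the 5 genes was above background in total RNA of all 6 mice. All 7 astrocyte and 6 microglia markers were tested. Their means ran from 10.4 to 11.2 and from 8.51 to 9.31 in transgenic mice, and lay at 10.3 and from 8.45 to 8.52 in control mice. Of 9 markers of striatal projection neurons 7 were tested, with means of 9.22 to 9.36 in transgenic and 9.44 to 9.58 in control mice. The 4 tested excitatory neuron markers averaged 10.3 in transgenic mouse 1 and 10.5 to 10.7 in the other 5 mice. Of 6 meningeal markers 4 were tested, with means of 8.38 to 8.90 in transgenic and 7.99 to 8.19 in control mice. On long-tail arrays the 3' minus 5' difference of the Gapdh control probe sets, a sign of RNA quality, was 0.15, -0.18 and -0.12 in control mice 1, 2 and 3 and ran from -0.15 to -0.13 in transgenic mice, and that of Actb was -1.08, -0.66 and -0.96 in control mice and -0.75 to -0.69 in transgenic mice. Control mice 1 and 3 had the lowest Actb values. The part of these differences in the values of the kinases and calmodulins was not tested, and in bulk tissue fewer cells of a type and less RNA per cell cannot be told apart.

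In control mice the member genes split by tail ratio. All 6 probe sets of Camk2a, 2 of Camk4, 1 of Camk2g and that of Nrgn lay towards the long-tail fraction, and all 4 tested calmodulin probe sets, Camk2b and 1 of Camk2d lay towards the short-tail fraction. The mean tail ratio of control mice passed an adjusted p of 0.05 in limma for 16 of 22 probe sets, 10 above and 6 below 0. Of all probe sets tested, 63% passed, 27.6% above and 35.4% below 0, so the total is near the background. The median control tail ratio was 0.33 over the 22 and -0.07 over all probe sets tested. In transgenic mice 4 of 22 passed, 3 above and 1 below 0, against 31.8%, 12.7% and 19.1% of all, with medians of 0.11 and -0.11. The tail ratio was above 0 in all 6 mice for 10 probe sets, against 26.4% of all, and below 0 in all 6 for 8, against 36.6%. These comparisons with all probe sets are not like for like, since all probe sets include dimmer ones. Probe sets of 1 gene are also not independent of each other. The p-values measure the spread among 3 mice of a genotype, and all 6 mice share 1 estimate of that spread. The count of 4 in transgenic mice was 0 without transgenic mouse 1 or without transgenic mouse 2, where 0% of all probe sets passed. It was 7 without control mouse 1 (50.2% of all), and 13 once the tail ratios of each mouse were rescaled to 1 spread (61.1% of all). Fitted on the 3 control mice alone, 11 control calls were left, without Nrgn, Calm2 1423807_PM_a_at, Camk2g 1423942_PM_a_at and the Camk2a probe sets 1437125_PM_at and 1457311_PM_at. Of all probe sets, 45.7% passed in that fit. With arrays centred on their medians Nrgn, Camk2g 1423942_PM_a_at and Camk2a 1437125_PM_at did not pass.

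**Figure D1:**
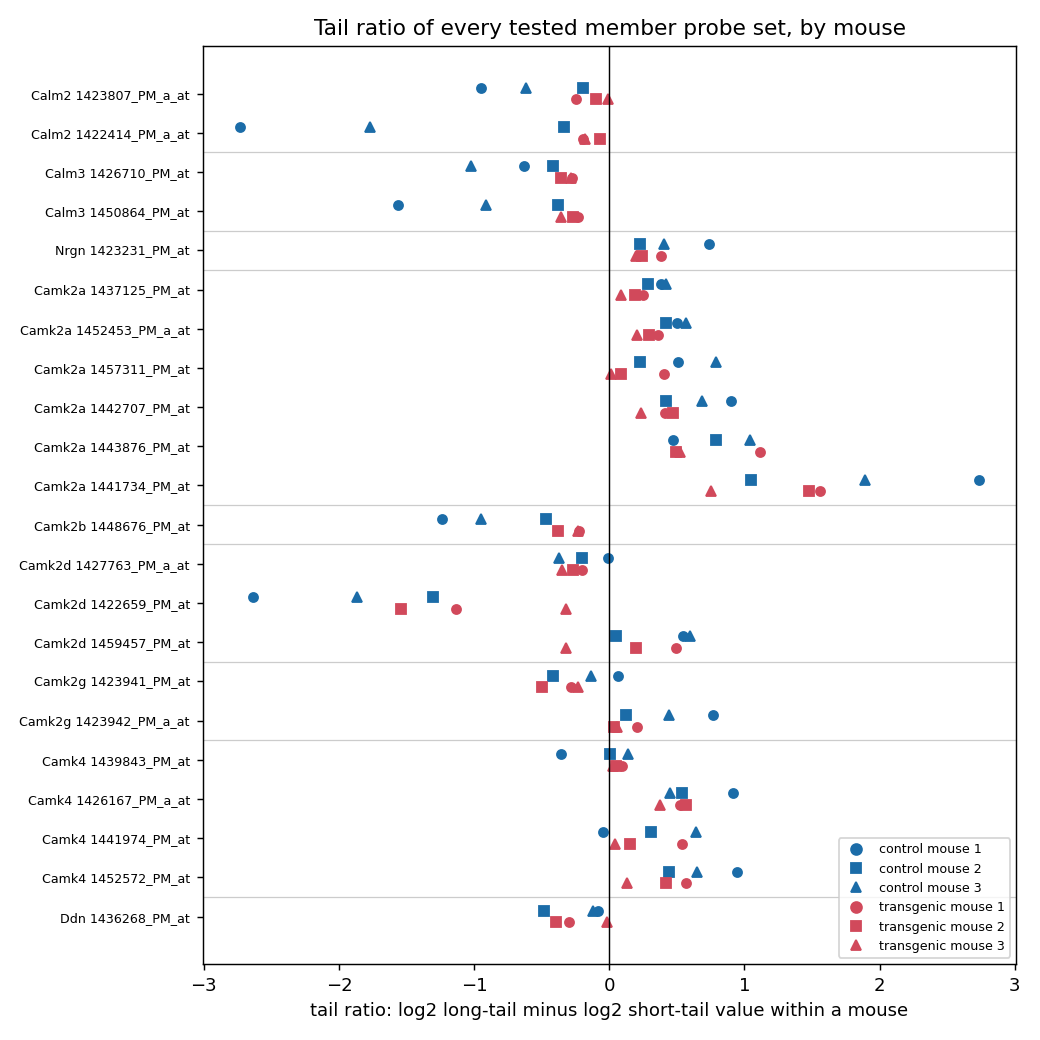
Tail ratio (log2 long-tail minus log2 short-tail value within a mouse, horizontal axis) of the 22 tested probe sets, grouped by gene. Circles, squares and triangles are mice 1, 2 and 3, with control mice in blue and transgenic mice in red. The Camk2a points all lie right of 0 and the Calm2 and Calm3 points all lie left of it.

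For the calmodulins, the calcium sensors of the pathway, all 4 tested probe sets had a tail ratio below 0 in all 6 mice. Calm2 was measured by 2 probe sets. For 1423807_PM_a_at the tail ratio was -0.95, -0.19 and -0.61 in control mice 1, 2 and 3, and -0.25, -0.10 and -0.01 in transgenic mice 1, 2 and 3. The control mean was -0.58 ± 0.16 (SE, n = 3; limma adjusted p = 0.013), a call that was lost without control mouse 1 (-0.40, adjusted p = 0.051) or control mouse 3 (-0.57, adjusted p = 0.059). Control mice 1 and 3 were the lowest, and control mouse 2 fell among the transgenic mice. For 1422414_PM_a_at the tail ratio was -2.74, -0.34 and -1.77 in the controls and -0.19, -0.07 and -0.18 in the transgenic mice. Control mice 1 and 3 stood far below the other 4 mice, and all transgenic mice were above all control mice. The control mean was -1.61 ± 0.36 (SE, n = 3; limma adjusted p = 0.0057) and -1.05 without control mouse 1. The transgenic mean was -0.15 (adjusted p = 0.77).

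The large Calm2 values came from the long-tail arrays. Probe set 1422414_PM_a_at read 12.27, 12.25 and 12.22 in the total RNA of control mice and 12.03, 12.16 and 12.17 in that of transgenic mice. In the short-tail fraction it read 12.08, 12.12 and 12.07 in the controls and 11.80, 11.83 and 11.92 in the transgenic mice. In the long-tail fraction it read 9.34, 11.78 and 10.30 in the controls and 11.61, 11.76 and 11.73 in the transgenic mice. The transgenic mice lay slightly below the controls in total RNA and in the short-tail fraction, and in the long-tail fraction control mice 1 and 3 fell far below the other 4 mice. The long-tail difference between genotypes was 1.23 (limma adjusted p = 0.30), and its adjusted p was 0.034 with the mouse as a random block. That fit gives the 3 preparations 1 spread. The SDs in total, short-tail and long-tail RNA were 0.02, 0.03 and 1.23 in control mice and 0.08, 0.06 and 0.08 in transgenic mice. The long-tail p-value of that fit may thus be too small. The difference was 0.66 without control mouse 1 (adjusted p = 0.52) and 1.88 without control mouse 2 (adjusted p = 0.016). Among all probe sets tested, its tail ratio ranked at the 3.21, 33.8 and 4.79 percentiles in control mice and at the 43.1, 55.4 and 38.0 percentiles in transgenic mice.

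Calm3, which encodes the same protein from another gene, had 4 probe sets, of which 1438826_PM_x_at and 1438825_PM_at were not above background on any array and were not tested. Probe set 1426710_PM_at had tail ratios of -0.63, -0.42 and -1.02 in the controls and -0.27, -0.36 and -0.28 in the transgenic mice. Its control mean was -0.69 ± 0.14 (SE, n = 3; limma adjusted p = 0.0042). Probe set 1450864_PM_at had tail ratios of -1.56, -0.38 and -0.91 in the controls and -0.23, -0.27 and -0.36 in the transgenic mice. Its control mean was -0.95 ± 0.20 (SE, n = 3; limma adjusted p = 0.0047). For both probe sets every transgenic mouse lay above every control mouse, and control mouse 2 was the nearest to them. The transgenic means of -0.30 and -0.29 did not pass (adjusted p = 0.13 and 0.29). Cross-hybridisation between calmodulin genes was not tested, since probe sequences were not used here.

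Nrgn encodes neurogranin, a postsynaptic protein that holds calcium-free calmodulin. Its only probe set, 1423231_PM_at, had tail ratios of 0.74, 0.23 and 0.40 in the controls and 0.39, 0.24 and 0.20 in the transgenic mice. All were above 0, and the genotypes overlapped. The control mean was 0.46 ± 0.14 (SE, n = 3; limma adjusted p = 0.019), and the call was lost without control mouse 1 (0.32, adjusted p = 0.088) or control mouse 3 (0.48, adjusted p = 0.062). The transgenic mean was 0.27 ± 0.14 (SE, n = 3; limma adjusted p = 0.15). The rank of Nrgn in the tail ratios of a mouse was steadier than its size, between the 72.1 and 79.4 percentiles in all 6 mice. Ddn encodes dendrin, a protein of the postsynaptic density. Its probe set 1436268_PM_at had tail ratios of -0.08, -0.48 and -0.12 in the controls and -0.30, -0.39 and -0.02 in the transgenic mice. They were below 0 in all 6 mice, but the control mean of -0.23 and the transgenic mean of -0.24 did not pass (limma adjusted p = 0.18 and 0.22).

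Camk2a, the alpha subunit that predominates in forebrain CaMKII, had a tail ratio above 0 for 6 of 6 probe sets in 6 of 6 mice. For 1437125_PM_at, the probe set with the highest level, it was 0.39, 0.29 and 0.42 in the controls and 0.25, 0.19 and 0.09 in the transgenic mice. For 1452453_PM_a_at it was 0.50, 0.42 and 0.57 in the controls and 0.36, 0.30 and 0.20 in the transgenic mice. For both, every transgenic mouse lay below every control mouse, and transgenic mouse 3 was the lowest. The control means were 0.36 ± 0.12 and 0.49 ± 0.12 (SE, n = 3; limma adjusted p = 0.025 and 0.0072), and the first was lost without control mouse 1 (0.35, adjusted p = 0.059) or control mouse 3 (0.34, adjusted p = 0.11). Probe sets 1457311_PM_at, 1442707_PM_at and 1443876_PM_at had control means of 0.51, 0.67 and 0.77 (limma adjusted p = 0.018, 0.0039 and 0.0057), with overlapping genotypes. The call of 1457311_PM_at was lost without control mouse 3 (0.37, adjusted p = 0.12). In transgenic mice the means of the 6 probe sets ran from 0.17 to 1.26.

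One Camk2a probe set stood apart from the others. For 1441734_PM_at the tail ratio was 2.74, 1.05 and 1.89 in the controls and 1.56, 1.48 and 0.75 in the transgenic mice, with a control mean of 1.89 ± 0.29 (SE, n = 3; limma adjusted p = 0.0013). Its short-tail values of 5.55, 5.55 and 5.65 in the controls and 5.58, 5.56 and 5.45 in the transgenic mice were above background in 1 of 3 control and 0 of 3 transgenic mice, so the sizes of its tail ratios rest on short-tail values that were mostly not above background. Its long-tail values of 8.29, 6.60 and 7.54 in the controls and 7.14, 7.04 and 6.20 in the transgenic mice were above background in all 6. The transgenic mean of 1.26 passed (limma adjusted p = 0.016), and since no short-tail value there was above background it is given as at least 1.95-fold higher in the long-tail fraction, against the lowest signal above background. The call was lost with the arrays quantile-normalized again (1.14, adjusted p = 0.051), without transgenic mouse 1 (1.11, adjusted p = 0.13) or transgenic mouse 2 (1.16, adjusted p = 0.13). In total RNA it was above background in 2 of 3 control and 1 of 3 transgenic mice. The only other Camk2a probe set that passed in transgenic mice was 1443876_PM_at, with a mean of 0.71 (limma adjusted p = 0.018). It fell to 0.51 without transgenic mouse 1 (adjusted p = 0.15) and was 0.82 without transgenic mouse 2 (adjusted p = 0.092).

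Camk2b, the beta subunit that ties the holoenzyme to actin, lay on the other side of 0 from Camk2a. Its probe set 1448676_PM_at had tail ratios of -1.24, -0.47 and -0.95 in the controls and -0.23, -0.38 and -0.23 in the transgenic mice. All 6 were below 0, and every transgenic mouse was above every control mouse. The control mean was -0.88 ± 0.16 (SE, n = 3; limma adjusted p = 0.0023) and the transgenic mean -0.28 ± 0.16 (SE, n = 3; limma adjusted p = 0.20). Its long-tail values were 9.78, 10.67 and 10.15 in the controls and 10.58, 10.58 and 10.67 in the transgenic mice. As for Calm2, the long-tail values of control mice 1 and 3 were the low ones.

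Camk2d encodes the delta subunit, best known from heart, and its 3 tested probe sets disagreed. Probe set 1422659_PM_at had tail ratios of -2.63, -1.31 and -1.87 in the controls and -1.13, -1.54 and -0.32 in the transgenic mice. Transgenic mouse 2 fell within the control range, and transgenic mouse 3 was nearest to 0. Both means passed, at -1.94 ± 0.28 in control and -0.999 ± 0.28 in transgenic mice (SE, n = 3; limma adjusted p = 0.0011 and 0.031). The transgenic call was lost without transgenic mouse 1 (-0.93, adjusted p = 0.17), transgenic mouse 2 (-0.73, adjusted p = 0.22) or control mouse 3 (adjusted p = 0.053), and with the arrays quantile-normalized again (-0.75, adjusted p = 0.12). The long-tail value was above background in 2 of 3 control mice, and in all 3 transgenic mice. Probe set 1427763_PM_a_at had a control mean of -0.20 and a transgenic mean of -0.27, which did not pass (limma adjusted p = 0.20 and 0.12). With arrays centred on their medians both passed (-0.32 and -0.36, adjusted p = 0.046 and 0.047). Probe set 1459457_PM_at had tail ratios of 0.55, 0.05 and 0.60 in the controls and 0.50, 0.20 and -0.32 in the transgenic mice, and its control mean of 0.40 did not pass (limma adjusted p = 0.087), except without control mouse 2 (0.57, adjusted p = 0.038). Its long-tail value was above background in 2 of 3 control mice, not in control mouse 1, and in all 3 transgenic mice. Its total RNA value was above background in 2 of 3 control and 1 of 3 transgenic mice. Probe set 1456844_PM_at was not above background on any array.

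Camk2g encodes the gamma subunit, which is known to shuttle calmodulin to the nucleus. Its probe set 1423941_PM_at had tail ratios of 0.07, -0.42 and -0.14 in the controls and -0.28, -0.50 and -0.23 in the transgenic mice. Probe set 1423942_PM_a_at had tail ratios of 0.77, 0.12 and 0.44 in the controls and 0.20, 0.04 and 0.06 in the transgenic mice. The second was the higher in each of the 6 mice, and the genotypes overlapped for both. Its control mean of 0.44 ± 0.15 passed (SE, n = 3; limma adjusted p = 0.028), but not without control mouse 1 (0.28, adjusted p = 0.13), control mouse 3 (0.44, adjusted p = 0.096), transgenic mouse 1 (adjusted p = 0.050) or transgenic mouse 2 (adjusted p = 0.051). With the arrays quantile-normalized again it was 0.84 (adjusted p = 0.0051). The control mean of the first was -0.16 (limma adjusted p = 0.32).

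Camk4 had 4 probe sets. Probe set 1426167_PM_a_at had tail ratios of 0.92, 0.54 and 0.45 in the controls and 0.52, 0.57 and 0.38 in the transgenic mice, and passed in both genotypes, with means of 0.63 ± 0.14 and 0.49 ± 0.14 (SE, n = 3; limma adjusted p = 0.0048 and 0.029). The genotypes overlapped, and the control call stood in each fit that left out 1 mouse. The transgenic call was lost without transgenic mouse 1, 2 or 3 (0.47, 0.45 and 0.55, with adjusted p = 0.16, 0.19 and 0.061). Probe set 1452572_PM_at had tail ratios of 0.94, 0.44 and 0.65 in the controls and 0.57, 0.42 and 0.13 in the transgenic mice, with a control mean of 0.68 ± 0.15 (SE, n = 3; limma adjusted p = 0.0051). Probe set 1441974_PM_at had a control mean of 0.30 that did not pass (limma adjusted p = 0.14) except without control mouse 1 (0.47, adjusted p = 0.035). Probe set 1439843_PM_at, the Camk4 probe set with the highest level, had tail ratios of -0.36, 0.00 and 0.14 in the controls and 0.09, 0.05 and 0.02 in the transgenic mice. It lay near 0 in all mice but control mouse 1.

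Probe sets of 1 gene were next compared with each other within each mouse. The 6 genes with more than 1 tested probe set gave 27 pairs, and in control mice the tail ratios of 12 pairs in 5 genes differed past the threshold of limma, adjusted over 10971 pairs of 4622 genes. Of all pairs, 42.1% passed, and 53.5% of the genes had such a pair. The sign of the difference was the same in all 6 mice for 14 of the 27 pairs, against 42.4% of all pairs. In transgenic mice 0 of 27 pairs passed in limma, against 7.48% of all, and the lowest adjusted p was 0.0502. The transgenic count was 11 without control mouse 1 and 4 without control mouse 2, and the control count was 7 without control mouse 3. With each genotype fitted alone 5 pairs passed in control and 10 in transgenic mice. How many of all pairs passed in these other fits was not counted, so these changes cannot be set against a background.

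**Figure D2:**
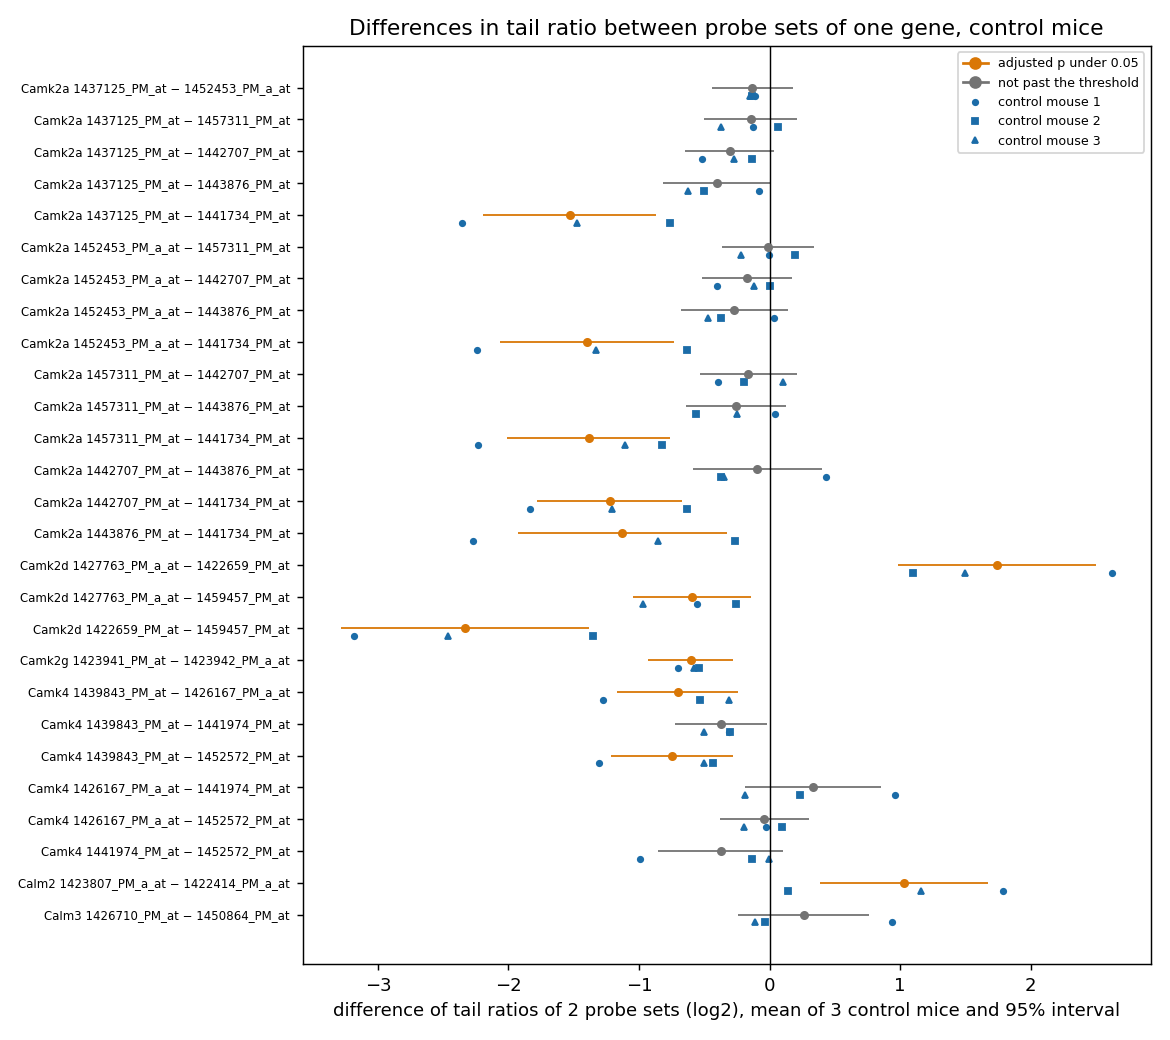
Difference in tail ratio (log2, horizontal axis) between the probe sets of each of the 27 pairs in control mice, as the mean of 3 mice with its 95% interval. Small blue marks are the mice, and the 12 orange pairs passed an adjusted p of 0.05, 5 of them in Camk2a, 3 in Camk2d, 2 in Camk4 and 1 each in Camk2g and Calm2.

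For Camk2a the 5 pairs that passed all held 1441734_PM_at, which was subtracted, and their control means ran from -1.53 to -1.13 (limma adjusted p = 0.0072 to 0.033). These sizes rest on its short-tail values, which were above background in 1 of 3 control mice. The smallest of these, against 1443876_PM_at, was lost with the arrays quantile-normalized again (-0.79, adjusted p = 0.105) and without any 1 of control mice 1 and 3 and transgenic mice 1, 2 and 3, and was -0.56 without control mouse 1. Among the other 5 probe sets 0 of 10 pairs passed in limma, with a lowest adjusted p of 0.10. With the arrays quantile-normalized again 4 of these 10 passed, the pairs of 1443876_PM_at with 1437125_PM_at, 1452453_PM_a_at and 1457311_PM_at (-0.81, -0.65 and -0.52, adjusted p = 0.012, 0.022 and 0.035) and that of 1437125_PM_at with 1442707_PM_at (-0.49, adjusted p = 0.042). The first of these passed also without control mouse 1 (-0.56, adjusted p = 0.039). The tightest pair was 1437125_PM_at and 1452453_PM_a_at, which differed by -0.12, -0.13 and -0.15 in the controls and -0.11, -0.10 and -0.12 in the transgenic mice. The mean difference of -0.13 in control mice had a 95% interval of -0.44 to 0.18. The SD of the control mice was 0.016, so the width of this interval comes mainly from the spread of all pairs, which limma draws on.

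For Camk2d all 3 pairs passed. The tail ratio of 1427763_PM_a_at exceeded that of 1422659_PM_at by 2.62, 1.10 and 1.50 in the controls and by 0.93, 1.28 and -0.03 in the transgenic mice. The difference was large in 5 mice and close to 0 in transgenic mouse 3. The control mean was 1.74 ± 0.33 (SE, n = 3; limma adjusted p = 0.0075). Between 1422659_PM_at and 1459457_PM_at the difference was -3.18, -1.36 and -2.47 in the controls and -1.63, -1.74 and 0.00 in the transgenic mice, with a control mean of -2.33 ± 0.41 (SE, n = 3; limma adjusted p = 0.0059). Transgenic mouse 3 was again the one near 0. In control mouse 1 the long-tail values of 1422659_PM_at and 1459457_PM_at (6.00 and 7.26) were not above background (7.30). The sizes of all 3 pair differences in that mouse thus rest partly on such values. The third pair, 1427763_PM_a_at and 1459457_PM_at, differed by -0.59 (limma adjusted p = 0.042), which was lost without control mouse 1 or 3 or transgenic mouse 1 or 2, and was -0.41 without control mouse 3. It was lost also with the arrays quantile-normalized again (-0.20, adjusted p = 0.44) and with tail ratios rescaled to 1 spread (-0.48, adjusted p = 0.056).

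For Camk2g, 1423941_PM_at lay below 1423942_PM_a_at by 0.70, 0.54 and 0.58 in control mice, and the difference was -0.48, -0.53 and -0.29 in transgenic mice. Its sign and rough size were shared by all 6 mice. The control mean was -0.61 ± 0.14 (SE, n = 3; limma adjusted p = 0.015; 0.057 without control mouse 3), and the transgenic mean -0.43 ± 0.14 (SE, n = 3; limma adjusted p = 0.10). For Camk4, 1439843_PM_at lay below 1426167_PM_a_at and 1452572_PM_at in each mouse, with control means of -0.71 and -0.75 (limma adjusted p = 0.026 and 0.022). Both were lost without control mouse 1 (-0.42 and -0.47, adjusted p = 0.067 and 0.052), where the differences had been widest. The first was lost also without transgenic mouse 1 or 2 (adjusted p = 0.053 and 0.052) and the second without control mouse 3 (adjusted p = 0.052). For Calm2 the probe sets differed by 1.79, 0.14 and 1.16 in the controls and by -0.05, -0.03 and 0.17 in the transgenic mice, so that the control mean of 1.03 (limma adjusted p = 0.022) came from control mice 1 and 3. It was 0.65 without control mouse 1 (adjusted p = 0.052) and 0.97 without control mouse 3 (adjusted p = 0.089). The Calm3 pair differed by 0.26 and did not pass (limma adjusted p = 0.35).

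The genotypes were then compared within each preparation. In total RNA Camk2d was higher and Camk4 lower in transgenic than in control mice by their means, but 0 of 22 probe sets passed in limma in total RNA, in the short-tail or in the long-tail fraction, as 0% of all probe sets did. At an unadjusted p under 0.05 there were 3, 3 and 5 of the 22, against 10.9%, 16.5% and 16.5% of all. The 3 mice of 1 genotype lay wholly above or below those of the other for 8 probe sets in total RNA (2 higher and 6 lower in transgenic mice), 9 in the short-tail fraction (3 and 6) and 8 in the long-tail fraction (2 and 6). The same held for 18.4% of all probe sets in total RNA (11.1% higher, 7.3% lower), for 24.6% in the short-tail fraction (14.1% and 10.5%) and for 24.5% in the long-tail fraction (14.1% and 10.3%). Probe sets of 1 gene in the same mice are not independent, so these member counts are not counts of genes. In the long-tail fraction the 6 lower ones were 4 of Camk2a and 2 of Camk4, and the 2 higher ones were of Camk2d. The median genotype difference over the 22 was -0.07, -0.09 and -0.16 in the 3 preparations, against 0.02, 0.01 and 0.01 over all. With all 18 arrays in 1 fit and the mouse as a random block, 6 of the 22 passed in the long-tail fraction, against 4677 of all probe sets (17.3%), and 0 in the other preparations, where 0 of all passed.

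**Figure D3:**
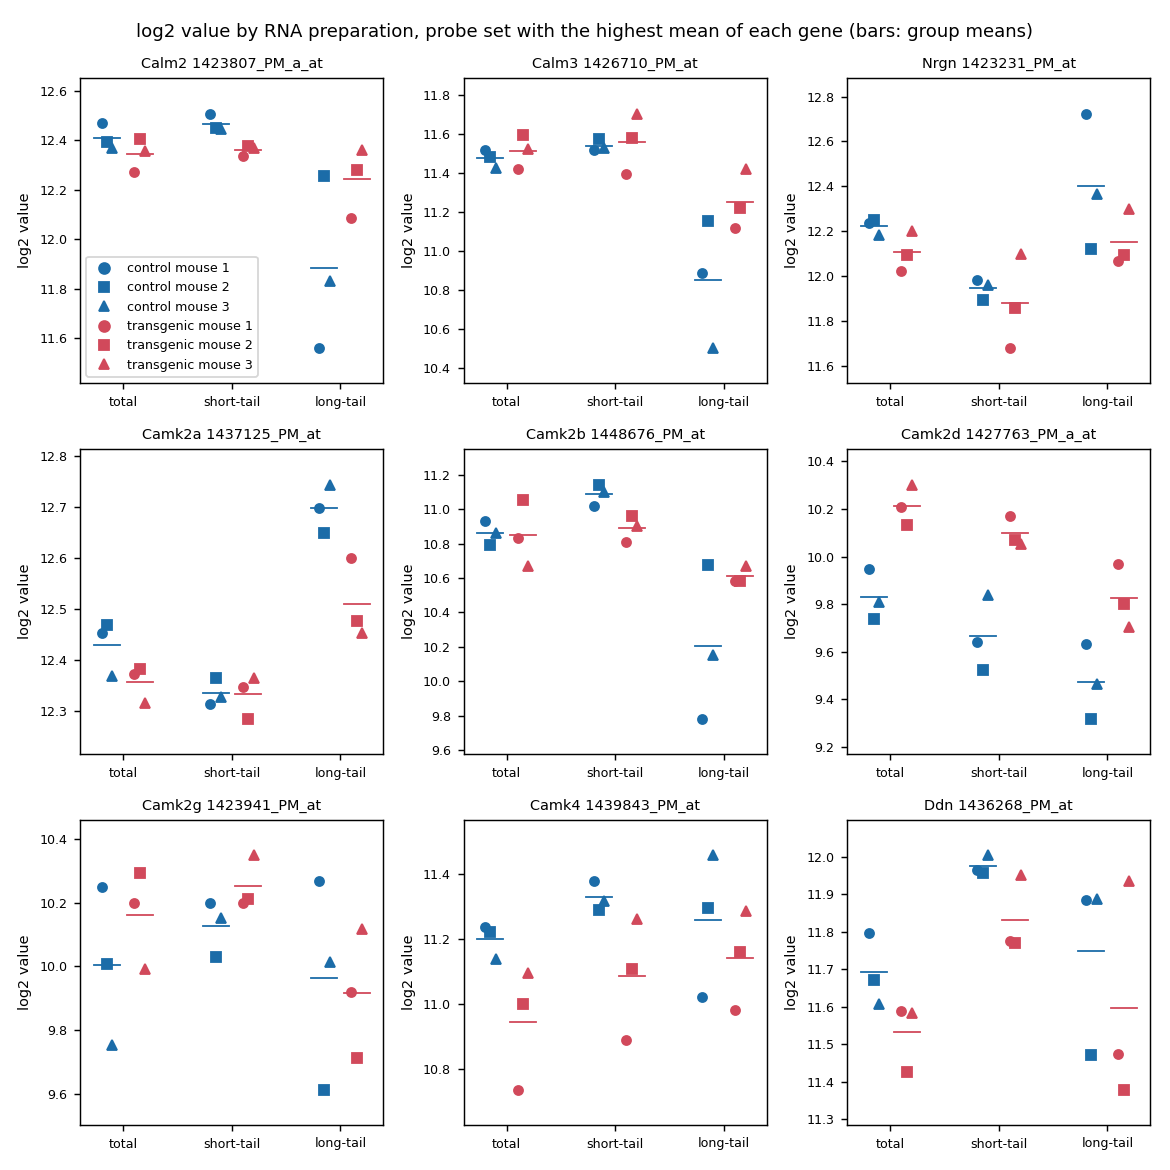
log2 value of the probe set with the highest mean of each gene in total, short-tail and long-tail RNA, 1 mark per mouse and bars at the means of 3 mice; the vertical axis differs between panels. Camk2d is higher in the transgenic mice in each preparation, and Calm2 and Camk2b in the long-tail fraction are low in control mice 1 and 3.

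For Camk2d, 2 of the 3 tested probe sets were higher by their means in transgenic mice in all 3 preparations. Probe set 1427763_PM_a_at read 9.95, 9.74 and 9.81 in the total RNA of control mice and 10.21, 10.13 and 10.30 in that of transgenic mice. In the short-tail fraction it read 9.64, 9.52 and 9.84 in the controls and 10.17, 10.07 and 10.05 in the transgenic mice. All transgenic mice were above all control mice in these and in the long-tail fraction. The differences were 0.38 ± 0.11 in total RNA, 0.43 ± 0.11 in short-tail RNA and 0.35 ± 0.17 in long-tail RNA (SE, n = 3 per genotype; limma adjusted p = 0.42, 0.18 and 0.33), and the long-tail difference had an adjusted p of 0.0497 with the mouse as a random block. Without transgenic mouse 1, the mouse with the highest inflammation genes, they were 0.39, 0.39 and 0.28. Probe set 1422659_PM_at read 7.88, 7.39 and 7.29 in the controls and 8.43, 8.32 and 7.89 in the transgenic mice in total RNA, a difference of 0.69 ± 0.19 (SE, n = 3 per genotype; limma adjusted p = 0.42). These total RNA values were above background in 2 of 3 control mice, not in control mouse 3, and in all 3 transgenic mice. In the long-tail fraction it read 6.00, 7.35 and 6.77 in the controls and 7.94, 7.67 and 8.23 in the transgenic mice, a difference of 1.23 ± 0.33 (SE, n = 3 per genotype; limma adjusted p = 0.28). All transgenic mice were above all control mice in both. The long-tail difference was 1.56 without control mouse 2 (limma adjusted p = 0.022, where 2319 of all probe sets passed) and 0.88 without control mouse 1 (adjusted p = 0.35), whose value was not above background. With the mouse as a random block its adjusted p was 0.014. The third probe set, 1459457_PM_at, differed by 0.13 in total RNA (95% interval -0.32 to 0.57), by 0.11 in short-tail RNA and by -0.16 in long-tail RNA. The means of the astrocyte, microglia and inflammation genes were also higher in transgenic mice 1 and 2. In total RNA the inflammation mean of transgenic mouse 2 lay below the background level. In total RNA those of the 4 tested meningeal and of all 6 endothelial and mural markers were higher in all 3 transgenic than in all 3 control mice (8.56 to 8.67 against 8.23 to 8.50 for the latter). The part of these cell types in the Camk2d levels was not tested.

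All 4 Camk4 probe sets were lower on average in transgenic mice in each of the 3 preparations, and none passed in limma (adjusted p = 0.19 to 0.72). With the mouse as a random block, the long-tail differences of 1426167_PM_a_at and 1452572_PM_at passed (-0.52 and -0.58, adjusted p = 0.030 and 0.028). Probe set 1426167_PM_a_at read 10.53, 10.48 and 10.37 in the controls and 9.74, 10.23 and 10.29 in the transgenic mice in total RNA. In the short-tail fraction it read 9.85, 9.81 and 9.77 in the controls and 9.29, 9.44 and 9.57 in the transgenic mice. In the long-tail fraction it read 10.77, 10.34 and 10.22 in the controls and 9.82, 10.01 and 9.95 in the transgenic mice. All transgenic mice were below all control mice each time, and transgenic mouse 1 was the lowest. The differences were -0.37, -0.37 and -0.52 (limma adjusted p = 0.45, 0.19 and 0.29). Transgenic mouse 1 was the lowest of the 6 for all 4 Camk4 probe sets in total RNA and in the short-tail fraction. Without it the total RNA differences of 1439843_PM_at, 1426167_PM_a_at, 1441974_PM_at and 1452572_PM_at shrank from -0.26, -0.37, -0.31 and -0.23 to -0.15, -0.20, -0.23 and -0.05. The same mouse was also the lowest for both Calm2 and both tested Calm3 probe sets and for Nrgn in those preparations. Its excitatory neuron markers were the lowest of the 6 mice, and their part in these levels was not tested.

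The total RNA of Camk2a, Camk2b, Camk2g, the calmodulins, Nrgn and Ddn differed between genotypes by at most 0.16 in either direction by the means of their tested probe sets. For 1437125_PM_at of Camk2a the difference was -0.07 (95% interval -0.29 to 0.15), for Camk2b -0.01 (-0.29 to 0.27) and for Nrgn -0.12 (-0.35 to 0.11). In the long-tail fraction the 6 Camk2a probe sets were lower in transgenic mice by their means, with no overlap for 4 of them. Of all probe sets, 10.3% were lower in transgenic mice without overlap in that fraction. The Camk2a probe sets measure the same gene in the same mice, so they are not independent of each other. Among these 4, the largest difference was -0.47 ± 0.18 for 1442707_PM_at (SE, n = 3 per genotype, limma adjusted p = 0.29). With the mouse as a random block its adjusted p was 0.018. That probe set read 12.03, 11.72 and 11.70 in the controls and 11.44, 11.38 and 11.23 in the transgenic mice.

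**Figure D4:**
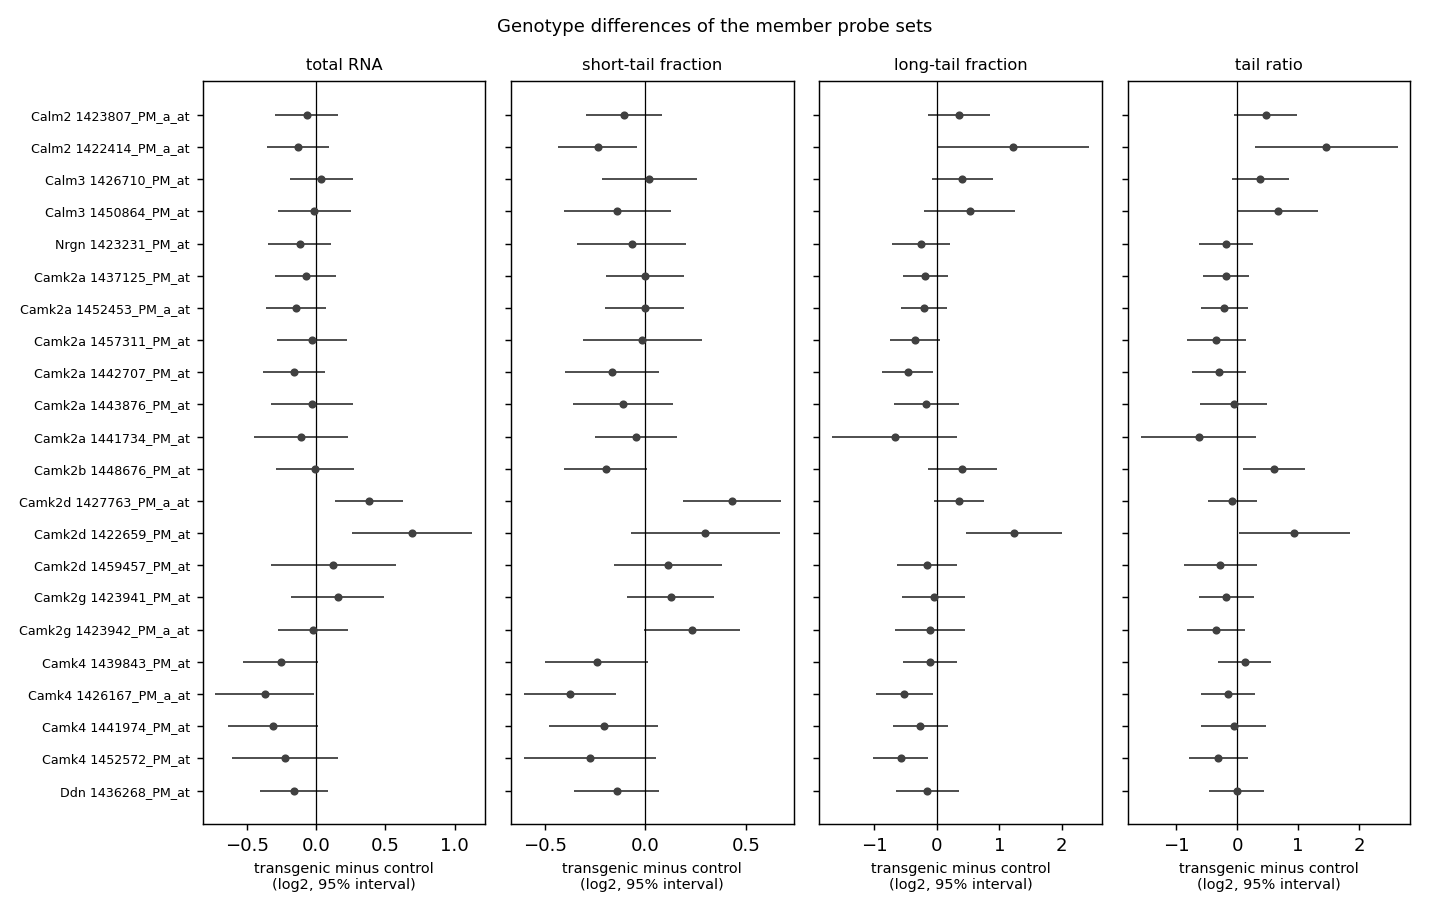
Transgenic minus control difference (log2, horizontal axes) with its 95% interval for the 22 tested probe sets in total, short-tail and long-tail RNA and in the tail ratio. Horizontal scales differ between panels. No difference passed an adjusted p of 0.05, the lowest being 0.18.

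The tail ratio itself was compared between genotypes last. By the means, the tail ratios of all 6 Camk2a probe sets and of Nrgn were lower, and those of the 4 tested calmodulin probe sets and of Camk2b higher, in transgenic than in control mice, which is nearer to 0 in each case. Not all members moved that way. The transgenic means of Camk2g 1423941_PM_at (-0.33 against -0.16) and Camk2d 1427763_PM_a_at (-0.27 against -0.20) lay further from 0. That of Ddn was almost the same (-0.24 against -0.23). None of the 22 differences passed in limma (0% of all probe sets did), the lowest adjusted p was 0.37, and 4 had an unadjusted p under 0.05, against 13.4% of all. The genotypes did not overlap for 6 probe sets, 4 higher and 2 lower in transgenic mice, against 18.2%, 9.66% and 8.57% of all. The 4 were the Camk2b probe set, both of Calm3 and 1 of Calm2, and the 2 were 1437125_PM_at and 1452453_PM_a_at of Camk2a. The differences were 1.47 ± 0.51 for Calm2 1422414_PM_a_at, 0.67 ± 0.29 for Calm3 1450864_PM_at, 0.61 ± 0.22 for Camk2b and -0.18 ± 0.17 for Camk2a 1437125_PM_at (SE, n = 3 per genotype). Without control mouse 2, the control mouse with the narrowest tail ratios, the first 3 became 2.10, 0.95 and 0.81 and passed (limma adjusted p = 0.0089, 0.046 and 0.043), as did 2487 of all probe sets. Without control mouse 1 the same differences were 0.90, 0.36 and 0.43 and did not pass. The wider tail ratios of control mice 1 and 3 over all probe sets moved with these differences, and their part was not tested.

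Other genes of the pathway and other dendritic mRNAs gave the context. Of 35 other genes that bind calmodulin or are regulated by it, 31 were tested, each by its probe set with the highest mean. In control mice 2 lay above and 16 below 0 past the threshold, against 27.6% and 35.4% of all probe sets, with a median tail ratio of -0.45. For this list and the next, as for the members, the comparison is not like for like, since all probe sets include dimmer ones. Of all control calls 43.8% lay above 0, but 31.25% did with the 60th percentile filter, which keeps brighter probe sets. In transgenic mice 0 lay above and 3 below, against 12.7% and 19.1% of all, with a median of -0.26. The 2 above 0 were Crtc1, a calcineurin-regulated coactivator of CREB (0.89 ± 0.23, limma adjusted p = 0.010), and Camk1d, a CaM kinase I isoform (0.65 ± 0.13, limma adjusted p = 0.0038). The lowest 3 were Ppp3r1, the regulatory subunit of calcineurin (-1.27 ± 0.31), Rcan1, a calcineurin inhibitor (-1.26 ± 0.27), and Itpka, a calmodulin-activated inositol trisphosphate kinase (-1.13 ± 0.17), with limma adjusted p = 0.0086, 0.0049 and 0.0012. The 3 in transgenic mice were Itpka, Itpkb and Adcy8 (-0.68, -0.53 and -0.53, limma adjusted p = 0.021, 0.034 and 0.017). Of 23 other mRNAs known to be found in dendrites 17 were tested, and 5 lay above and 4 below 0 in control mice and 0 in transgenic mice, beside the same shares of all, with medians of 0.01 and 0.00. The synaptic scaffolds Shank1 and Shank3 and the microtubule protein Map1a were the highest (1.49, 1.07 and 0.76, limma adjusted p = 0.0056, 0.0033 and 0.0078). The RNA-binding protein Fmr1, the transcription factor Atf4 and the actin regulator Limk1 were the lowest (-1.42, -1.13 and -0.71, limma adjusted p = 0.0023, 0.0012 and 0.014). The long-tail value of Fmr1 was above background in 2 of 3 control mice. Neither list had a gene that passed between genotypes in limma in any preparation or in the tail ratio.

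Across the 18 arrays, the probe set of another gene most like that of each member was also found, by Pearson correlation of the log2 values as a description. The points share mice, preparations and normalization. The highest-level Camk2a probe set was most like Nfasc (r = 0.976), Camk2b like Nudt3 (0.976), Camk2d like Zfp146 (0.881) and Camk2g like Elmo2 (0.903). Camk4 was most like Plcb4 (0.947), Calm2 like Dnaja1 (0.986), Calm3 like Cox5b (0.982), Nrgn like Chrm1 (0.951) and Ddn like Fam8a1 (0.909). Nfasc had a control tail ratio of 0.63 beside the 0.36 of Camk2a, and Dnaja1 one of -1.31 beside the -0.58 of Calm2.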

How the data were processed

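Per the submitters' processing notes, the authors made the deposited log2 values per probe set with RMA. Neither the version nor whether the 18 arrays were run together is stated in the sources used. Per the labels' protocols, amplification took 21 cycles from 5 ng, and 8 µg of cDNA was labelled. The design text names a Mouse PrimeView array, whereas the probe set names are of another design, whose annotation was used. The normalization in RMA hides a shift shared by most transcripts. Precision is limited by the number of mice, since arrays have no read depth.

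The 104 control probe sets were left out, and probe sets whose mean over the 18 arrays was under the 40th percentile (5.95) were not tested. Groups came from the labels. Linear models were fitted with limma 3.58.1 (lmFit, eBayes) in R 4.3.3 with statmod 1.5.0. P-values are two-sided and adjusted by Benjamini-Hochberg over all 27022 probe sets or 10971 pairs, with 0.05 as the threshold. Tail ratios pair the fractions of a mouse, as the labels do. Above background means above the highest of 23 nonspecific control probe sets of that array. Nothing says how the mice relate by litter. Named genes are all members, and of each list the 3 highest and 3 lowest tail ratios that passed in control mice, and the gene most correlated with each member. Itpkb and Adcy8 were named after their values were seen. The members and lists were chosen with earlier results of these data known. The test script was checked on simulated data.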

Additional observations from a re-analysis of the deposited data

How the results depend on the processing

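Wherever they were tested, 11 of the 16 tail ratio calls in control mice, 0 of the 4 in transgenic mice and 5 of the 12 pair calls in control mice held, and 0 called values changed sign. Of these, 10 tail ratio calls and 1 pair call were tested under every alternative, while 1 and 4 were not tested with the 60th percentile filter. The count of 16 ran from 11 to 17 when a mouse was left out (48.5% to 62.7% of all probe sets). With all 18 arrays quantile-normalized again, which moved the control median of all probe sets by 0.15, it was 17, and with arrays centred on their medians, which moved it by -0.12, it was 14, with 7 above and 7 below 0 (of all calls, 53.1% and 34.1% lay above 0, against 43.8%). Of all probe sets, 58.2% and 61.7% passed in control mice under these scalings. The 4 calls in transgenic mice became 8 with each genotype fitted alone (53.7% of all) and 13 with tail ratios rescaled to 1 spread (61.1%). They became 0 to 7 when a mouse was left out (0% to 50.2%). The 12 pairs in control mice became 5 with the 60th percentile filter, 5 with each genotype alone, and 7 to 12 without a mouse. The 0 pairs in transgenic mice became 1 without a filter, 10 with each genotype alone, 12 after rescaling, and 0 to 11 without a mouse. How many of all pairs passed under these alternatives was not counted, and the cause of these changes was not tested. The 0 long-tail genotype calls became 6 with the mouse as a random block, where 17.3% of all probe sets passed in a fit that shares 1 spread among the preparations. They became 0 to 2 without a mouse (0% to 8.58% of all). The 0 tail ratio differences became 0 to 3 without a mouse (0% to 9.2% of all). Deviations of same-numbered mice correlated at 0.36, -0.31 and 0.27 for the tail ratio. These values cannot tell whether the mouse numbers pair the genotypes. The short-tail and long-tail fractions of 1 mouse, which are paired, correlated at only -0.07 to 0.16 in control mice, and at 0.33 to 0.72 in transgenic mice. With the number as a replicate block, 0 genotype comparisons of the members passed in limma. Without the block of the fractions within a mouse 15 control tail ratios passed (60.3% of all). With 3 mice per genotype, the median unadjusted 95% interval of a genotype difference in tail ratio of the members reached 0.48 to either side. After adjustment larger differences were not told from 0 either, such as 1.47 for Calm2 1422414_PM_a_at (limma adjusted p = 0.37).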
